A study of Sus scrofa with 18 samples.

Results

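Subcutaneous fat (SAF) of 1-month-old and 3-month-old male Bama pigs was compared across all genes. The comparison rested on 6 of the 18 RNA-seq libraries of the series, chosen by tissue and age: 3 of SAF at 1 month and 3 of SAF at 3 months. Bama is a miniature pig breed, and the series followed SAF and visceral fat (VAF, adjacent to the kidney) at 1, 3 and 6 months to ask how the fat depots develop after birth. Each age was represented by 3 different pigs. All pigs had the same sire and carried no stated transgene or drug treatment. The paper's methods call their surroundings and nutrition the same. Its discussion adds that pigs of 1 month had been weaned and that their diet was changing. Age and diet history can therefore not be told apart. All pigs were fasted for 24 h before slaughter, and SAF was cut from the back over the last ribs. The results therefore describe fasted males of a single sire family, and the hour of slaughter is not given in the sources used here. The paper prints a different date beside each age group without saying what the date marks. Age and that date cannot be told apart. Libraries are called SAF1-1 to SAF1-3 and SAF3-1 to SAF3-3, with the age in months before the hyphen and the replicate number after it. For VAF, 3 libraries of 1 month and 2 of 3 months were used beside SAF. The labels of 2 further VAF libraries name different ages in different fields, and these libraries entered no comparison.

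White fat stores triglyceride in adipocytes. In pigs it is also the main site where new fatty acids are made from glucose, through cytosolic enzymes such as acetyl-CoA carboxylase and fatty acid synthase, under the transcription factors SREBP1 and ChREBP. During fasting, stored triglyceride is broken down, and part of the released fatty acid is re-esterified on glycerol phosphate made through the enzyme PCK1. Adipocytes also hold a circadian clock, in which BMAL1 (gene ARNTL) with CLOCK or NPAS2 drives PER, CRY and REV-ERB repressors and the output factors DBP, TEF and HLF.

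Total counts on genes ranged from 18147643 to 19980666 in SAF at 1 month and from 16889862 to 21430342 at 3 months. Pairwise Pearson r on log2(CPM + 1), where CPM is the count scaled to the library total and to TMM factors, was 0.984 to 0.994 within 1 month, 0.989 to 0.993 within 3 months and 0.981 to 0.99 between the ages. The tissue label was checked against adipocyte markers. All 8 were detected, and their summed level was 11298 to 15069 CPM at 1 month and 11992 to 14564 CPM at 3 months. SAF1-2 stood apart from the other SAF libraries of 1 month: its COL1A1 level was 26661 CPM against 7596 and 9948, and its SCD level 2721 CPM against 19482 and 16706. Results that rest on this library are given with and without it. These are bulk tissue libraries, so fewer cells of a type and less RNA per cell cannot be told apart.

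Of 14892 genes tested, 37 (0.248%) were called differentially expressed by edgeR's quasi-likelihood test. A call needed a Benjamini-Hochberg adjusted p below 0.05 together with a change of more than 1.5-fold in either direction. Of these, 18 (0.121%) rose from 1 to 3 months and 19 (0.128%) fell. A positive log2 fold change (log2FC) means higher at 3 months throughout, and SE is the standard error of log2FC. At an unadjusted p under 0.05 there were 2091 genes (14%), the share against which such counts in the gene lists are to be read. In all 37 called genes the 3 libraries of one age lay above all 3 of the other. Such a separation was also found in 10.8% of all tested genes in the higher direction and 9.0% in the lower. Counts of separated genes in the gene lists are to be read against these shares. The median log2FC of all tested genes was -0.03.

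The count of calls depended on the tool and on single libraries. DESeq2, the tool named in the study's methods, called 551 genes at the same limits, 279 higher and 272 lower at 3 months, and all 37 edgeR calls were among them. The earlier form of edgeR's quasi-likelihood fit called 15 genes, all of them among the 37. Leaving out SAF1-3 left 0 calls (1406 genes at an unadjusted p under 0.05), leaving out SAF3-2 left 3 and leaving out SAF3-3 left 1. Without SAF1-2, the library that stood apart, there were 50 calls, and without SAF3-1 there were 76. Of the 37 genes, 26 were among the calls without SAF1-2, 26 without SAF3-1 and 17 without SAF1-1. In the text, "rose" and "fell" are used only for the 37 genes. DESeq2 calls are named as such, and 1.85% of the tested genes were called higher and 1.79% lower by DESeq2.

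DUSP4, a nuclear phosphatase that switches off ERK kinases, had the smallest p. It lies on chromosome 15 (Sscrofa11.1, 55491084 to 55508460, plus strand). Its level was 65.4, 70.2 and 64.3 CPM in the 3 libraries of 1 month and 342, 334 and 350 CPM in those of 3 months. The 3 values at each age lay close together, and the ages were far apart. The rise was 5.08-fold (log2FC 2.34 ± 0.12 SE, edgeR adjusted p = 0.0012). AOX1, an aldehyde oxidase on chromosome 15 (104157748 to 104234533), measured 1.87, 0.97 and 1.62 CPM at 1 month and 108, 27.7 and 74.8 CPM at 3 months. It was low in each young pig and spread over a wide range in the older ones (log2FC 5.54 ± 0.55 SE, edgeR adjusted p = 0.022). TMEM213 had 1 read in all at 1 month against 171 at 3 months, a ratio of 181 with a 95% counting interval of 32.0 to 7178, which covers counting error only. TMEM213 overlaps ATP6V0A4 on the opposite strand.

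Several of the other rising genes act in metabolism. MID1IP1, which promotes the polymerization and activity of acetyl-CoA carboxylase, measured 45.4, 30.1 and 38.9 CPM at 1 month and 103, 138 and 138 CPM at 3 months (log2FC 1.71 ± 0.20 SE, edgeR adjusted p = 0.027). PPP1R3C, a subunit that brings protein phosphatase 1 to glycogen, rose with a log2FC of 1.43 ± 0.19 SE. SLC16A13, of the monocarboxylate transporter family, rose with a log2FC of 1.65 ± 0.20 SE, and it overlaps SLC16A11 on the opposite strand. ADHFE1, a mitochondrial hydroxyacid-oxoacid transhydrogenase, and ESD, an S-formylglutathione hydrolase, rose by log2FC 0.96 ± 0.14 SE and 1.00 ± 0.14 SE. METTL12, a methyltransferase that acts on citrate synthase, went from 1.23 to 1.51 CPM at 1 month to 5.92 to 12.5 CPM at 3 months (log2FC 2.60). The clock genes TEF and NR1D1 also rose and are described with their pathway.

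The remaining rising genes were signalling and immune genes and poorly described loci. NTN1, the guidance protein netrin-1, measured 35.0, 34.4 and 27.3 CPM at 1 month and 107, 79.6 and 111 CPM at 3 months, a 3.04-fold rise (edgeR adjusted p = 0.022). CCL26, a chemokine of the eotaxin group, rose with a log2FC of 1.96, and FCGR2B, the inhibitory receptor for IgG, with a log2FC of 1.48. TTC25, a protein of cilia, rose with a log2FC of 2.16. LOC110258498 and LOC110258184, annotated as transcribed pseudogenes on unplaced sequence, rose as well; reads of near-identical copies could be split between such loci, so their levels are uncertain. LOC110257712 rose with a log2FC of 2.62.

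Among the falling genes, GM2A had the smallest p together with DDC. It encodes the lysosomal cofactor that presents GM2 ganglioside to its hydrolase, on chromosome 16 (71742090 to 71767872, minus strand). GM2A measured 628, 333 and 447 CPM at 1 month and 47.0, 63.8 and 68.4 CPM at 3 months, a 7.94-fold fall (log2FC -2.99 ± 0.27 SE, edgeR adjusted p = 0.018). SDR16C5, a retinol dehydrogenase, measured 470, 426 and 439 CPM at 1 month and 126, 80.5 and 67.9 CPM at 3 months (log2FC -2.30 ± 0.24 SE, edgeR adjusted p = 0.022). In both genes every young pig lay far above every older pig.

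PCK1, the phosphoenolpyruvate carboxykinase of glycerol phosphate synthesis in fat, lies on chromosome 17 (57930507 to 57936523, plus strand). It measured 356, 539 and 626 CPM at 1 month and 114, 92.5 and 165 CPM at 3 months, a 4.15-fold fall (log2FC -2.05 ± 0.28 SE, edgeR adjusted p = 0.045). UCP3, a mitochondrial carrier whose transcript follows fatty acid supply, measured 239, 217 and 245 CPM at 1 month and 97.4, 116 and 130 CPM at 3 months (log2FC -1.05 ± 0.15 SE, edgeR adjusted p = 0.049). SRD5A1, a steroid 5-alpha-reductase, measured 35.0, 28.8 and 38.7 CPM at 1 month and 13.3, 11.3 and 9.91 CPM at 3 months, a 3.00-fold fall (edgeR adjusted p = 0.027).

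Of the remaining falling genes, CD59, which protects cells from complement lysis, fell from 432 to 467 CPM at 1 month to 153 to 208 CPM at 3 months (log2FC -1.29). SDK1, an adhesion molecule of the immunoglobulin family, fell with a log2FC of -1.72, MATN2, a matrix matrilin, with -0.93, MEGF6 with -2.92 and LRRN4CL with -2.31. SGCE, the imprinted epsilon-sarcoglycan gene, fell with a log2FC of -1.09 ± 0.15 SE. AMPH, a protein of membrane curvature in endocytosis, fell with -2.76, SCG5, a chaperone of prohormone convertase 2, with -3.08, and LRRC36 with -2.43. DDC, the decarboxylase that makes dopamine and serotonin, was low at 1 month (3.27 to 5.46 CPM) and 0.114 to 0.258 CPM at 3 months. VTCN1, a co-inhibitory ligand of T cells, had 174 reads at 1 month and 2 at 3 months, a ratio of 82.3 (95% counting interval 22.5 to 685). KLHL35, COL20A1 and FAM131C had 117, 64 and 58 reads at 1 month and 3, 4 and 4 at 3 months. CD59, LRRC36, MEGF6, MID1IP1, NTN1, SDR16C5 and VTCN1 also overlap other annotated genes, whose reads may be mixed with theirs.

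Just outside the limits were genes with separated groups and an edgeR adjusted p of 0.050 to 0.059. DDIT4, an inhibitor of mTORC1, measured 53.0, 55.3 and 58.9 CPM at 1 month and 110, 187 and 216 CPM at 3 months. PON3, a lactonase of the paraoxonase family, measured 57.5 to 78.8 CPM against 187 to 543 CPM, and FHL1, a LIM domain protein, 1079 to 1365 CPM against 376 to 522 CPM. None of the 10 most abundant genes passed edgeR's limits, among them SPARC, a collagen-binding matrix protein (log2FC -0.20), the mitochondrial COX1 (0.40) and the elongation factor EEF1A1 (0.45).

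**Figure D1:**
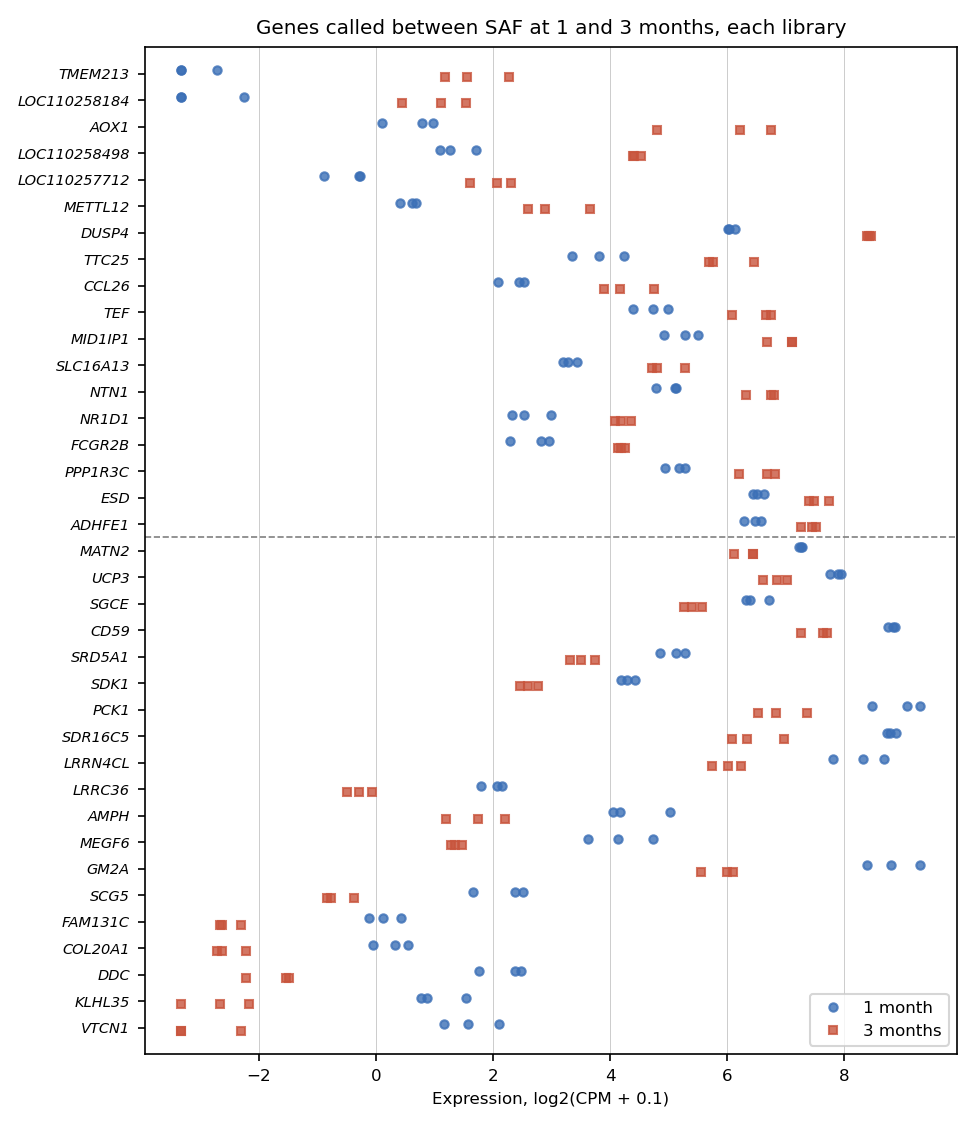
Level of the 37 called genes in each SAF library, as log2(CPM + 0.1) on the horizontal axis, with circles for the 3 libraries of 1 month and squares for the 3 of 3 months. Genes above the dashed line rose and genes below it fell; in none of them do circles and squares overlap, and DUSP4 shows the tightest groups relative to the gap between ages.

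Beyond single genes, 27 gene lists were described by counts and medians, without a test of the list. The highest medians of log2FC were those of fatty acid synthesis (0.97, 19 genes), the circadian clock (0.82, 20 genes), the nuclear-encoded respiratory chain (0.48, 65 genes), cholesterol synthesis and uptake (0.45, 23 genes), and glycolysis, pentose phosphate and citrate cycle enzymes (0.42, 39 genes). ERK feedback and immediate early genes also had a median of 0.42, which was 0.05 without SAF3-3 and 0.75 without SAF3-1. The lowest were those of collagens (-0.41, 18 genes), other matrix genes (-0.34, 40 genes) and matrix proteases (-0.30, 24 genes). Most of these lists held no gene past the edgeR limits.

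**Figure D2:**
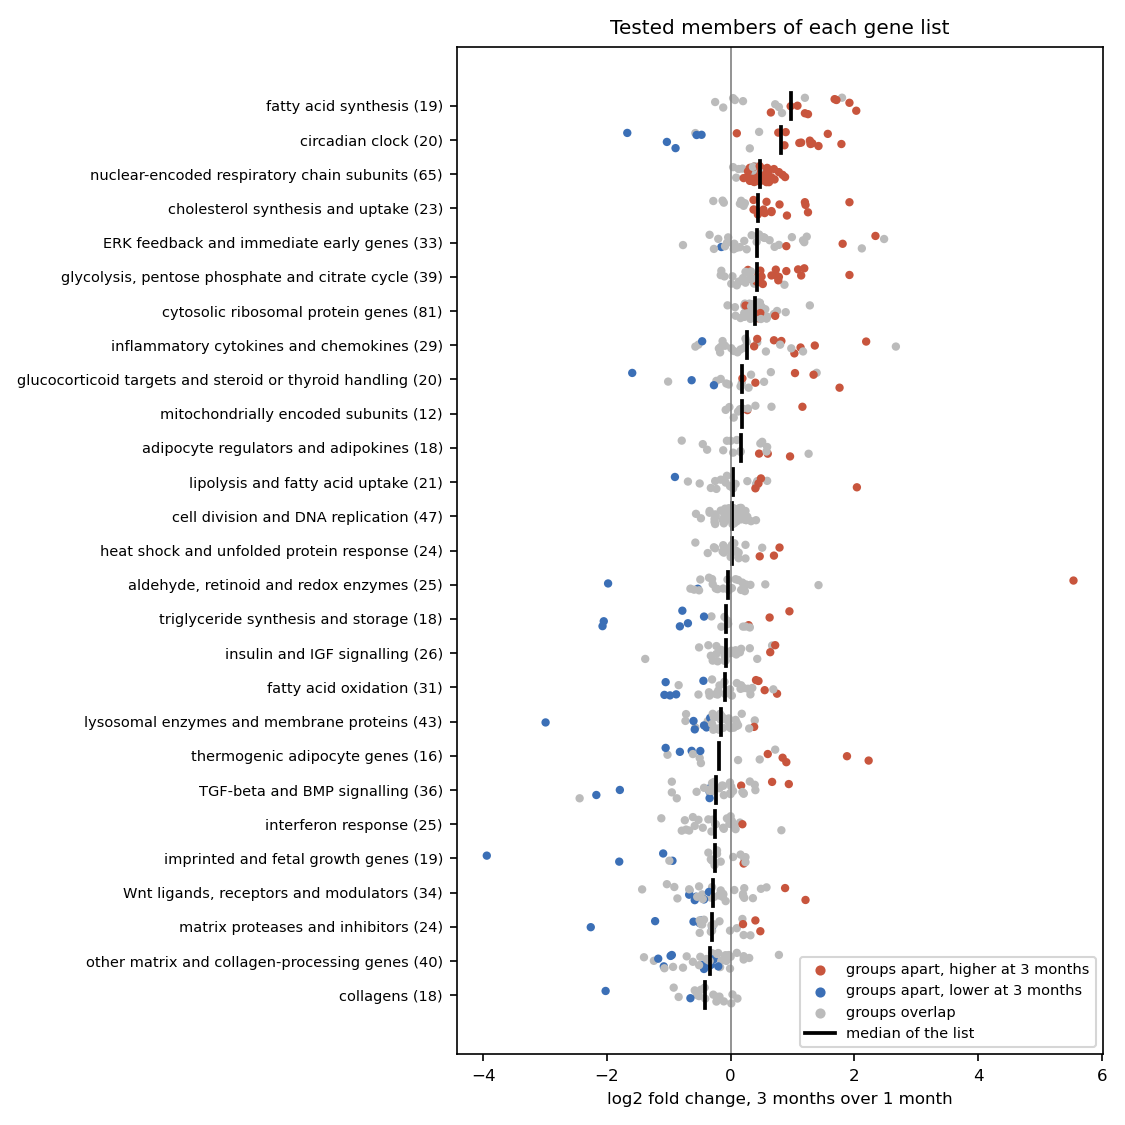
log2 fold change (3 months over 1 month) of each tested member of the 27 gene lists, ordered by the list median (black bar), with the number tested in parentheses. Colored points are members whose 3 libraries at one age all lie above the 3 of the other age. They lie to the right in fatty acid synthesis, cholesterol synthesis and the nuclear-encoded respiratory chain. In the clock, triglyceride storage and matrix proteases they lie on both sides, and in collagens and other matrix genes to the left.

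In fatty acid synthesis, 9 of 19 tested genes had higher values in all 3 libraries of 3 months than in any of 1 month, against 10.8% of all genes, and 0 were separated in the lower direction. MID1IP1 rose, and DESeq2 called 6 genes higher. Among the regulators, SREBF1, which encodes SREBP1, measured 200, 147 and 180 CPM at 1 month and 364, 343 and 414 CPM at 3 months (log2FC 1.08 ± 0.16 SE). Its edgeR adjusted p was 0.052, and its DESeq2 adjusted p 2e-06. MLXIPL, which encodes ChREBP, measured 140, 77.1 and 127 CPM at 1 month and 313, 268 and 242 CPM at 3 months (log2FC 1.25 ± 0.23 SE, edgeR adjusted p = 0.080). Both regulators were thus separated by age without passing edgeR's limit.

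The enzymes were more scattered. SLC25A1, the mitochondrial citrate carrier that supplies the pathway, measured 254, 171 and 259 CPM at 1 month and 1101, 445 and 673 CPM at 3 months (log2FC 1.68, edgeR adjusted p = 0.092, DESeq2 adjusted p = 3.5e-05). FASN, the fatty acid synthase, measured 6666, 1786 and 4614 CPM at 1 month and 27688, 9228 and 13010 CPM at 3 months. Its groups did not overlap, but it varied so much within each age that log2FC was 1.92 ± 0.65 SE (edgeR adjusted p = 0.25, DESeq2 adjusted p = 0.087). SCD, the stearoyl-CoA desaturase, overlapped between ages at 2721 to 19482 CPM against 12699 to 31324 CPM (log2FC 0.72 ± 0.77 SE). Without SAF1-2 the list median was 0.83, and over the alternatives it ran from 0.68 to 1.14.

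Cholesterol synthesis genes showed a smaller and more even difference. In 15 of 23 tested genes the 3-month libraries all lay above the 1-month ones, and in 0 the reverse. None passed edgeR's limits, and DESeq2 called 6 higher. MVD, the mevalonate diphosphate decarboxylase, measured 32.1, 26.7 and 38.5 CPM at 1 month and 83.5, 81.9 and 61.1 CPM at 3 months (log2FC 1.21 ± 0.19 SE, edgeR adjusted p = 0.061). MVK, the mevalonate kinase, measured 10.2, 5.26 and 8.30 CPM at 1 month and 20.7, 14.2 and 20.1 CPM at 3 months (log2FC 1.20 ± 0.27 SE, edgeR adjusted p = 0.12). The list median was 0.35 without SAF1-2.

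**Figure D3:**
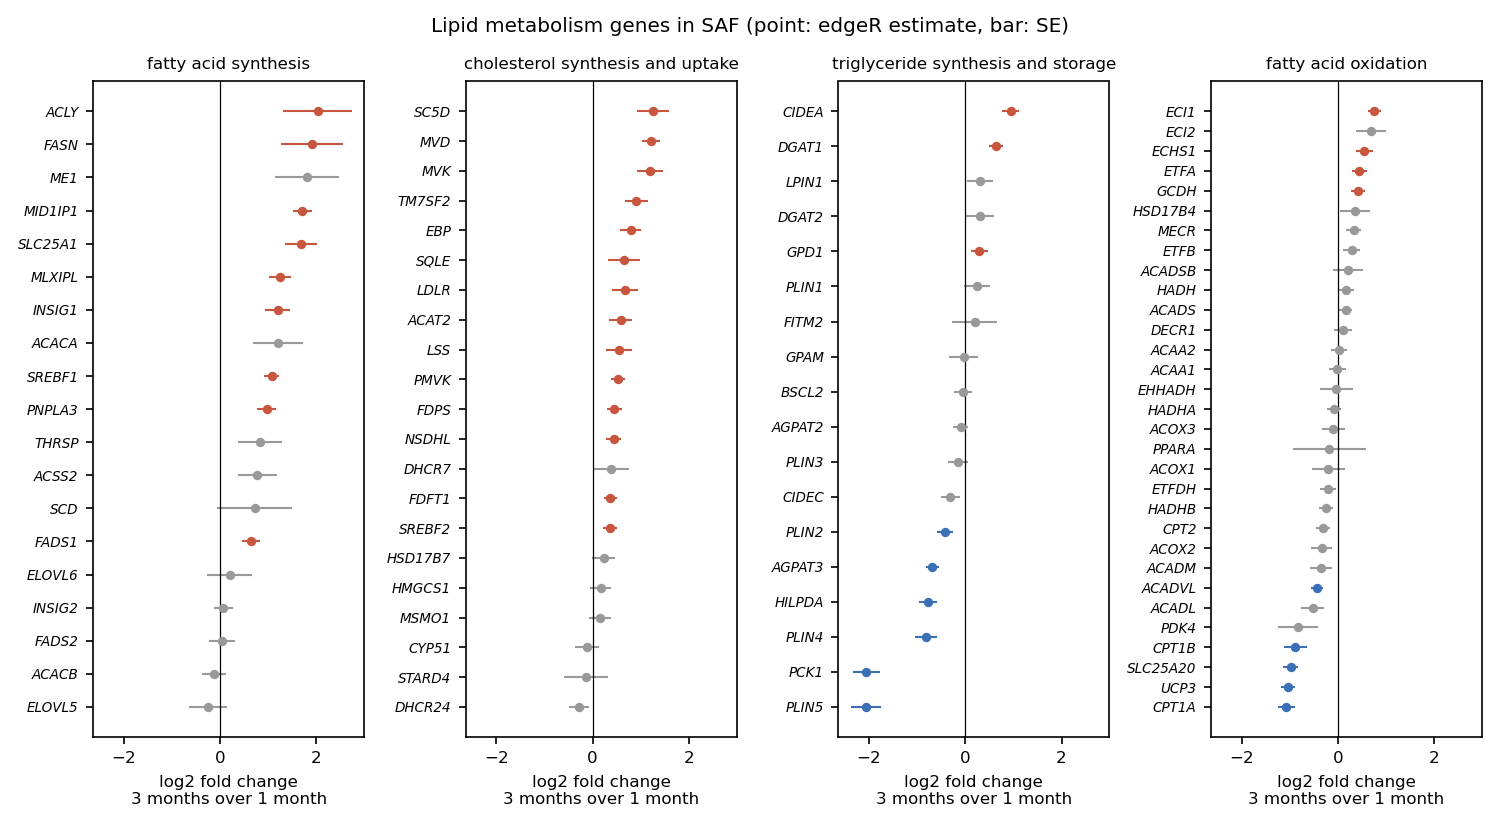
log2 fold change (3 months over 1 month, points) with its SE (bars) for tested genes of 4 lipid lists in SAF. Orange points are genes whose 3-month libraries all lie above the 1-month ones, blue points the reverse, and grey points overlap. The fatty acid and cholesterol synthesis lists lean to the right, while PCK1, PLIN5, CPT1A and SLC25A20 lie to the left.

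In triglyceride storage, 3 of 18 tested genes were separated upward and 6 downward, and the median log2FC was -0.07. PCK1 fell, as given above. PLIN5, a lipid droplet protein that ties droplets to mitochondria, measured 16.6, 38.7 and 27.8 CPM at 1 month and 6.23, 7.68 and 6.09 CPM at 3 months (log2FC -2.07 ± 0.31 SE, edgeR adjusted p = 0.052). CIDEA, which enlarges lipid droplets, lay in the other direction at 412, 326 and 431 CPM against 817, 794 and 666 CPM (log2FC 0.95, edgeR adjusted p = 0.080). The major droplet coat gene PLIN1 overlapped between ages (log2FC 0.24 ± 0.26 SE).

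In fatty acid oxidation, 4 of 31 tested genes were separated upward and 5 downward, near the 10.8% and 9.0% of all genes. UCP3 fell. The downward ones included CPT1A, the carnitine palmitoyltransferase of the outer membrane. It measured 82.2, 90.2 and 84.3 CPM at 1 month and 35.5, 36.0 and 52.0 CPM at 3 months (log2FC -1.07 ± 0.17 SE, edgeR adjusted p = 0.062). SLC25A20, the carnitine-acylcarnitine carrier, measured 114, 112 and 140 CPM against 58.6, 55.1 and 73.3 CPM (log2FC -0.98, edgeR adjusted p = 0.063). CPT2, a further carnitine palmitoyltransferase, overlapped between ages (log2FC -0.3, edgeR adjusted p = 0.4). ECI1, an isomerase of beta-oxidation, lay higher at 3 months (193, 191 and 208 CPM at 1 month and 335, 302 and 370 CPM at 3 months, edgeR adjusted p = 0.074). GCDH was also separated upward (log2FC 0.41, edgeR adjusted p = 0.26), while ACOX2 and MECR overlapped between ages.

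Lipolysis and adipocyte regulators held no gene past edgeR's limits. G0S2, an inhibitor of the triglyceride lipase ATGL, measured 23, 13.7 and 10.4 CPM at 1 month and 41.7, 91.5 and 61.9 CPM at 3 months (log2FC 2.04 ± 0.37 SE, edgeR adjusted p = 0.077). PNPLA2, which encodes ATGL itself, measured 617, 668 and 620 CPM against 873, 847 and 989 CPM (log2FC 0.49, edgeR adjusted p = 0.22). AQP7, a glycerol channel, was separated downward (log2FC -0.90, edgeR adjusted p = 0.12). PPARG, the central regulator of adipocyte genes, measured 217, 165 and 209 CPM at 1 month and 314, 320 and 272 CPM at 3 months (edgeR adjusted p = 0.16, DESeq2 adjusted p = 0.024). ADIPOQ, LEP and FABP4, which encode adiponectin, leptin and a fatty acid binding protein, overlapped between the ages.

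Carbohydrate and mitochondrial genes leaned upward with small differences per gene. In glycolysis, the pentose phosphate pathway and the citrate cycle, 20 of 39 tested genes were separated upward and 0 downward, 0 passed edgeR's limits (17 at an unadjusted p under 0.05), and DESeq2 called 9 higher. SLC2A4, the insulin-responsive glucose transporter GLUT4, measured 150, 84.8 and 133 CPM at 1 month and 336, 231 and 283 CPM at 3 months (log2FC 1.19 ± 0.24 SE, edgeR adjusted p = 0.092). GAPDH measured 698, 781 and 686 CPM against 1730, 1321 and 1615 CPM (log2FC 1.09 ± 0.19 SE, edgeR adjusted p = 0.070). PGD, an NADPH-forming enzyme of the pentose phosphate pathway, was separated upward (log2FC 0.66).

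All 65 nuclear-encoded respiratory chain subunits had a log2FC above 0, 51 of them with separated groups, and 0 passed edgeR's limits while 49 had an unadjusted p under 0.05. DESeq2 called 17 higher. Their summed level was 7377 to 7691 CPM in the libraries of 1 month and 9437 to 11832 CPM in those of 3 months, so the groups did not overlap. NDUFB4, a subunit of complex I, had the smallest p, at 50.4, 50.4 and 53.9 CPM against 93.7, 82.9 and 91.7 CPM (log2FC 0.78 ± 0.12 SE, edgeR adjusted p = 0.052). Subunits encoded by the mitochondrial genome had a median log2FC of 0.18 (12 genes). Cytosolic ribosomal protein genes had a log2FC above 0 in 80 of 81 cases, but only 4 had separated groups, and their summed level overlapped (45097 to 67723 CPM against 55012 to 83617 CPM). Transcript length moved with these lists. The median log2FC was 0.10 over the 25% of tested genes with the shortest transcripts and -0.13 over the 25% with the longest, and the respiratory chain and ribosomal genes had median lengths of 818 and 761 bases. The part of transcript length in these medians was not tested. The paper's methods give RNA integrity only as a range over the samples, not for each library. Its part in these medians was not tested either.

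The circadian clock list had genes on both sides. The hour of slaughter is not given for either age, so age and hour cannot be told apart in this list. Of 20 tested genes, 12 were separated upward and 5 downward, against 10.8% and 9.0% of all genes. TEF and NR1D1 rose, and DESeq2 called 10 higher and 3 lower. Of the activators, ARNTL, which encodes BMAL1, measured 15.7, 16.8 and 17.2 CPM at 1 month and 8.05, 3.72 and 3.97 CPM at 3 months (log2FC -1.67 ± 0.30 SE, edgeR adjusted p = 0.076). NPAS2, its partner, measured 22.0, 21.2 and 30.2 CPM against 14.8, 9.27 and 12.4 CPM (log2FC -1.03, edgeR adjusted p = 0.11). CLOCK overlapped between ages. Both separated activators were thus lower in every older pig.

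Of the repressors, NR1D1, which encodes REV-ERB alpha and represses ARNTL, measured 5.68, 7.81 and 4.91 CPM at 1 month and 16.8, 20.5 and 18.0 CPM at 3 months (log2FC 1.57 ± 0.22 SE, edgeR adjusted p = 0.049). NR1D1 overlaps THRA on the opposite strand of chromosome 12, and the strand setting of the counting is not given, so reads of the pair may be mixed. PER1 and PER3 were separated upward, PER1 at 72.3, 93.5 and 59.7 CPM against 146, 163 and 192 CPM (log2FC 1.14, edgeR adjusted p = 0.070) and PER3 with a log2FC of 0.89. CRY1 was separated downward at 30.1, 23.3 and 24.3 CPM against 15.1, 12.6 and 14.8 CPM (log2FC -0.89, edgeR adjusted p = 0.081). Of the output factors, TEF measured 26.6, 31.5 and 20.9 CPM at 1 month and 67.7, 108 and 101 CPM at 3 months, a 3.46-fold rise (log2FC 1.79 ± 0.23 SE, edgeR adjusted p = 0.036). DBP had a log2FC of 1.11 and HLF of 0.77, both with separated groups. Their antagonist NFIL3 was separated downward (log2FC -0.55). The list median was 0.93 without SAF1-2 and 0.62 without SAF1-3.

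Sequences before 3 clock genes are shown because these genes were separated by age, without passing edgeR's limits, and carry the letters through which clock factors are known to act. Capitals mark the E-box CACGTG (bound by BMAL1 with its partners), the D-box TTATGNAA (bound by DBP, TEF, HLF and NFIL3) and the core TAGGTCA (shared by REV-ERB and ROR factors). All were searched on both strands in the 250 bases before the gene start, in the RefSeq Sscrofa11.1 genome. PER1 is at chr12:53376724-53376973 (minus strand), PER3 at chr6:68487384-68487633 (plus) and DBP at chr6:53993045-53993294 (minus).
PER1: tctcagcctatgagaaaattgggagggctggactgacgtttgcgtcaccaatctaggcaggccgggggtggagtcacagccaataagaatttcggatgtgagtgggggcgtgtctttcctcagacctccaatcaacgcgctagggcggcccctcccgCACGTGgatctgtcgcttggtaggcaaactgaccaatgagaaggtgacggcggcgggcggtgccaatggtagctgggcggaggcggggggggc
PER3: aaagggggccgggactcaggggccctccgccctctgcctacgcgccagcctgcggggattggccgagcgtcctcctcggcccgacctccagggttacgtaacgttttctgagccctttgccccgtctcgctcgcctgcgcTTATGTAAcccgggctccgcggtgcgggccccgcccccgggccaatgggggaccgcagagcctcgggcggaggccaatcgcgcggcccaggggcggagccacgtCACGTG
DBP: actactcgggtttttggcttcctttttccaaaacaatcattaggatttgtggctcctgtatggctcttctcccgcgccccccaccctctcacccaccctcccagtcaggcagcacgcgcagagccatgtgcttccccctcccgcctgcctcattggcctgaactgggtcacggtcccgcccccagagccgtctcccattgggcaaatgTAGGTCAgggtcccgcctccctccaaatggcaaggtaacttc
The E-box lay before 3 of 20 clock genes (TEF, PER1 and PER3), 7.36% of 13564 tested genes and 6.4% of 19510 protein-coding genes. The D-box lay before 1 of 20 (PER3, at 110 bases), 2.04% of the tested genes and 2.49% of all. TAGGTCA lay before 2 of 20 (DBP and CRY2), 1.86% of the tested genes and 2.58% of all. Only the letters given above were searched, so other forms of these sites are not marked. The windows before ARNTL and NR1D1 held none of these letters, which says nothing of the factors. A match of letters is a description and shows neither binding nor an effect on the gene.

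**Figure D4:**
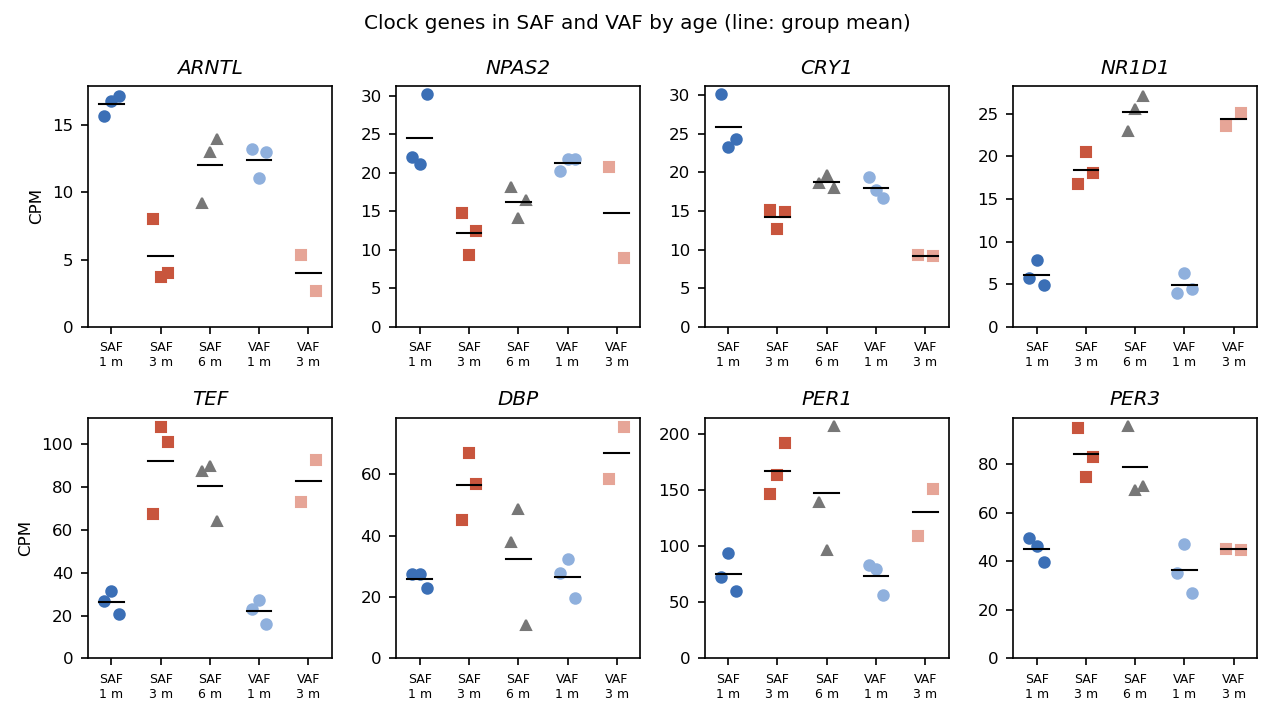
CPM of 8 clock genes in each library (points) with group means (lines), for SAF at 1, 3 and 6 months and VAF at 1 and 3 months; vertical axes start at 0. From 1 to 3 months ARNTL and CRY1 lie lower and NR1D1, TEF and DBP higher in both depots, without overlap between those ages. The hour of slaughter is not given for any age.

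In VAF, the same clock genes had a log2FC from 1 to 3 months of 1.93 for TEF, 2.33 for NR1D1 and -1.61 for ARNTL. Both depots came from the same group of pigs, so VAF does not separate age from the hour of slaughter. A difference of the age change between depots was not detected for these genes (interaction log2 -0.12 ± 0.36 SE, edgeR adjusted p = 0.91 for TEF, and adjusted p = 0.33 and 0.98 for NR1D1 and ARNTL). In the list of glucocorticoid targets and steroid or thyroid handling, 5 of 20 tested genes were separated upward and 3 downward, with a median log2FC of 0.19. SRD5A1 fell, and NR3C1, the glucocorticoid receptor gene, was separated downward (log2FC -0.27, edgeR adjusted p = 0.36). The glucocorticoid targets SGK1, KLF9 and ERRFI1 overlapped between ages. FKBP5, a target and co-chaperone of the glucocorticoid receptor, measured 65.3, 29.2 and 38.3 CPM at 1 month and 101, 159 and 194 CPM at 3 months (edgeR adjusted p = 0.090). TSC22D3, which encodes GILZ, measured 158, 154 and 123 CPM against 277, 365 and 473 CPM (log2FC 1.34, edgeR adjusted p = 0.062).

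ERK feedback and immediate early genes varied widely among the older pigs. Only DUSP4 passed edgeR's limits of 33 tested, and 3 were separated upward. JUNB, an immediate early transcription factor, measured 33.6, 57.6 and 45.4 CPM at 1 month and 28.6, 180 and 392 CPM at 3 months, so SAF3-1 lay below all young pigs and the other two older pigs far above. ZFP36, which destabilizes cytokine transcripts, showed the same order among older pigs (162, 420 and 809 CPM, log2FC 1.81, edgeR adjusted p = 0.18). DUSP4 itself did not vary in this way. In inflammatory cytokines and chemokines, 8 of 29 tested genes were separated upward and 1 downward, 0 passed edgeR's limits (9 at an unadjusted p under 0.05) and DESeq2 called 3 higher. CXCL2, a neutrophil chemokine, measured 8.54, 15.9 and 14.8 CPM at 1 month and 24.0, 79.6 and 77.6 CPM at 3 months. Among macrophage markers CD163 was separated upward (log2FC 0.94) and MSR1 downward (log2FC -1.07), and the summed level of the list overlapped (344 to 694 CPM against 484 to 991 CPM).

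Of 47 tested genes of cell division and DNA replication, 0 passed edgeR's limits, 0 had an unadjusted p under 0.05, 0 were called by DESeq2 and 0 had separated groups, and the median log2FC was 0.03. MKI67, the proliferation marker, measured 19.4, 14.9 and 17.3 CPM at 1 month and 18.3, 12.4 and 13.0 CPM at 3 months, and CCNB1, CDK1 and CDC20 overlapped as well. Of 26 insulin and IGF signalling genes 0 passed edgeR's limits, 3 had an unadjusted p under 0.05 and DESeq2 called 0. IGF1 overlapped between ages (log2FC -0.21 ± 0.25 SE) and so did IGF2 (log2FC -0.36 ± 0.21 SE). In the list of imprinted and fetal growth genes, 1 of 19 tested was separated upward and 4 downward. SGCE fell. Its neighbour PEG10, a retrotransposon-derived gene of placental growth, measured 116, 69.0 and 110 CPM against 45.0, 14.5 and 26.2 CPM (log2FC -1.80 ± 0.39 SE, edgeR adjusted p = 0.11, DESeq2 adjusted p = 0.00025). DLK1, a marker of adipocyte precursors, was low, at 1.16, 7.86 and 5.59 CPM at 1 month and 0.114, 0.183 and 0.619 CPM at 3 months (log2FC -3.94 ± 0.84 SE, edgeR adjusted p = 0.10). Both were lower in every older pig without passing edgeR's limit.

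Matrix genes leaned downward. Of 40 tested matrix and collagen-processing genes 0 were separated upward and 9 downward, and of 18 collagens 0 and 2. The shares of all tested genes were 10.8% and 9.0%, so the downward count of collagens lay near its share. No gene of either list passed edgeR's limits (14 at an unadjusted p under 0.05 over both), and DESeq2 called 4 and 2 lower. LOXL2, which crosslinks collagen, measured 498, 470 and 613 CPM at 1 month and 300, 185 and 226 CPM at 3 months (log2FC -1.17 ± 0.21 SE, edgeR adjusted p = 0.076). THBS1, the matrix glycoprotein thrombospondin-1, measured 94.2, 140 and 131 CPM against 59.1, 63.4 and 65.2 CPM (edgeR adjusted p = 0.070). COL4A5, a basement membrane collagen chain, measured 97.4, 47.8 and 47.8 CPM against 23.1, 14.1 and 11 CPM (log2FC -2.02, edgeR adjusted p = 0.079). The abundant COL1A1, COL1A2 and COL3A1 overlapped between ages.

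The matrix medians leaned on SAF1-2. Without it the median log2FC was -0.07 in collagens, -0.07 in other matrix genes and -0.14 in matrix proteases. With SAF1-2 included, progenitor and fibroblast markers leaned the same way: all 10 had a log2FC below 0, 3 of them (CD34, CD55 and DPP4) with separated groups. Over the fits that left out 1 library, these 3 stayed below 0, while COL1A1 ran from -0.49 to 0.57. The summed level of the 10 markers was 10278, 32641 and 13346 CPM in SAF1-1, SAF1-2 and SAF1-3 against 12786 to 19326 CPM at 3 months. Without SAF1-2 the sums at 1 month thus did not lie above the range of 3 months. The part of these cells in the matrix values was not tested. Of 24 proteases and inhibitors 3 were separated upward and 6 downward. ADAMTS5, an aggrecanase, measured 150, 83.1 and 105 CPM against 46.0, 46.2 and 54.4 CPM (log2FC -1.22, edgeR adjusted p = 0.076). Of 43 lysosomal genes 1 was separated upward and 6 downward, against 10.8% and 9.0% of all genes. GM2A fell, and the next smallest p in that list belonged to genes with small differences such as GLB1 (log2FC -0.60, edgeR adjusted p = 0.17).

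In the aldehyde, retinoid and redox enzymes (25 tested) AOX1 rose, and ALDH1A2, which makes retinoic acid, was separated downward (30.6, 13.2 and 33.7 CPM against 11.3, 2.26 and 6.30 CPM, edgeR adjusted p = 0.18). Of 34 Wnt genes 2 were separated upward and 5 downward, and of 36 TGF-beta and BMP genes 3 and 5, against 10.8% and 9.0% of all genes. In both lists 0 genes passed edgeR's limits (9 and 7 at an unadjusted p under 0.05, and 1 and 2 called by DESeq2). SMAD7, an inhibitor of the TGF-beta pathway, was separated upward (log2FC 0.94, edgeR adjusted p = 0.074). Pigs lack a functional UCP1, the uncoupling protein of brown fat. The list of other thermogenic adipocyte genes (16 tested) had 5 upward and 4 downward, with a median log2FC of -0.18 that ran from -0.23 to 0.29 over the alternatives. UCP3 fell there too, and COX7A1 was separated upward (log2FC 0.84). Interferon response and heat shock genes had 1 and 3 separated upward, and neither list had a call by edgeR (1 and 3 at an unadjusted p under 0.05) or by DESeq2.

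Apart from the erythroid ones, markers of other tissues were low or overlapped in their summed level. The 11 skeletal muscle markers summed to 3.53, 16.9 and 86.4 CPM at 1 month and 2.63 to 6.45 CPM at 3 months, highest in SAF1-3. Keratinocyte markers stayed at or below 8.0 CPM and mesothelial and urothelial markers at or below 6.1 CPM. The summed level of erythroid markers was lower at 3 months (175 to 209 CPM against 241 to 670 CPM), and nearly all of it was HBB. HBB measured 641, 229 and 254 CPM at 1 month and 202, 194 and 168 CPM at 3 months. ALAS2 was also separated downward (log2FC -1.74, edgeR adjusted p = 0.096), while HBM (log2FC 0.13) and AHSP (-0.06) overlapped between ages. Of 5 lymphatic markers, PROX1 (log2FC -1.76, edgeR adjusted p = 0.092) and FLT4 (log2FC -0.79, edgeR adjusted p = 0.23) were separated downward. LYVE1, PDPN and CCL21 overlapped between ages. The summed level of the 5 also overlapped (134 to 269 CPM at 1 month against 127 to 206 CPM at 3 months).

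The same genes were read in VAF of the same ages. The study took both depots from the same group of pigs, so the libraries of the depots are not independent samples, and differences between pigs cannot be told apart from a shared age change. Of the 37 genes, 34 had a log2FC of the same sign between VAF at 1 and 3 months and 3 did not (FAM131C, MATN2 and ADHFE1). Over all 14670 genes tested in both depots, 62.8% had the same sign. The difference of the age change between depots was tested as an interaction in 11 libraries from 6 pigs at most, as if these were independent. It passed an edgeR adjusted p under 0.05 in 374 of 16389 genes (2.28%), and in 3 of the 37: DUSP4, UCP3 and FAM131C. With age and replicate number as a block, standing for the pig, 108 genes passed. DUSP4 was among them (edgeR adjusted p = 0.038), whereas UCP3 had an adjusted p of 0.067 and FAM131C of 0.11. The labels do not say that a number marks the same pig in both depots. For DUSP4, VAF measured 63.5, 79.5 and 60.8 CPM at 1 month and 115 and 106 CPM at 3 months, so the rise was larger in SAF (interaction log2 1.63 ± 0.19 SE, edgeR adjusted p = 0.0027). For UCP3, VAF measured 167, 253 and 179 CPM at 1 month and 24.6 and 31.0 CPM at 3 months, a larger fall than in SAF without the block (interaction log2 1.79 ± 0.27 SE, edgeR adjusted p = 0.0092). The 8 adipocyte markers had a median log2FC of -1.41 in VAF and 0.09 in SAF, among them ADIPOQ at -1.57 and FABP4 at -1.62 in VAF. Smooth muscle or pericyte markers had a median of 2.24 in VAF and -0.14 in SAF, and mesothelial or urothelial markers of 8.19 and -0.52. The part of this difference in tissue makeup in the depot differences was not tested. In the remaining 34 genes a difference between depots was not detected, which does not show that the changes were equal.

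**Figure D5:**
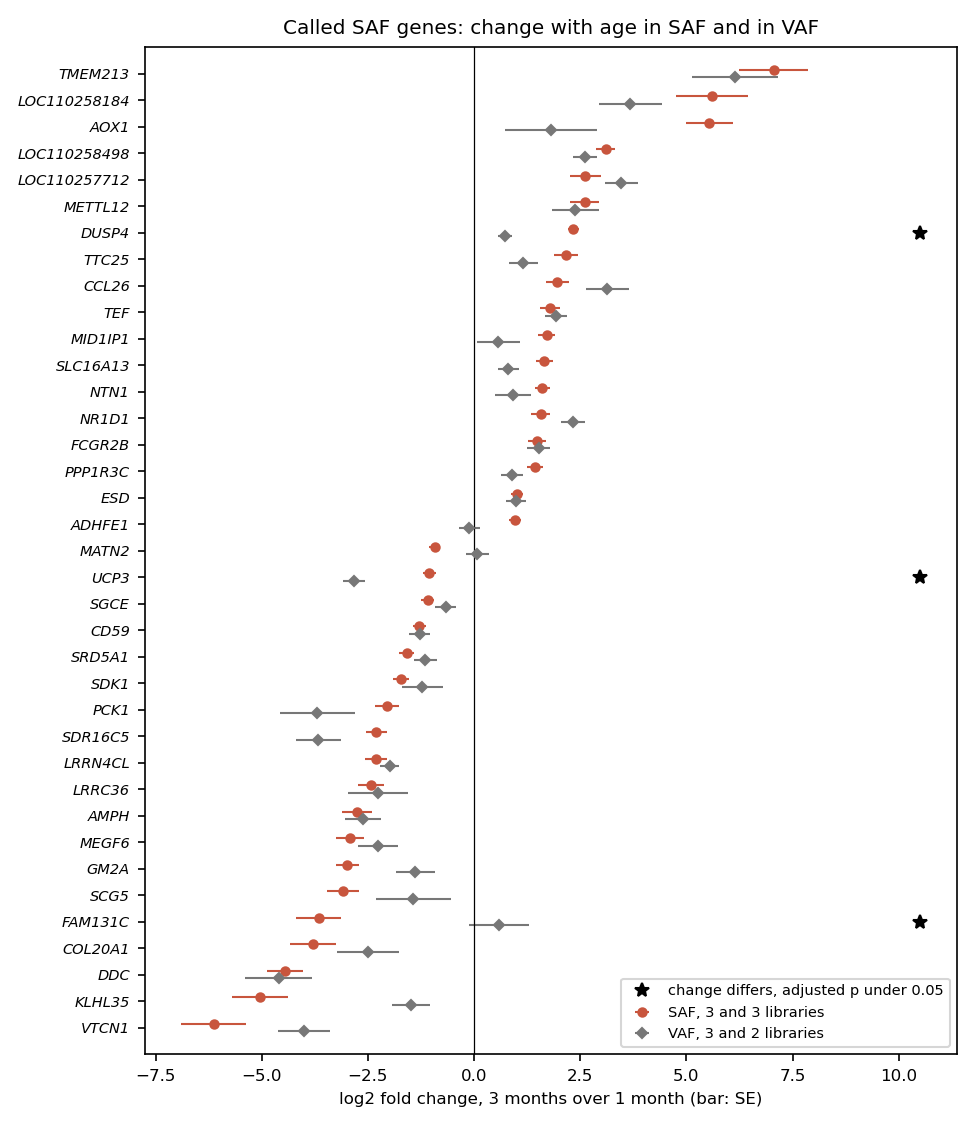
log2 fold change from 1 to 3 months (points) with its SE (bars) of the 37 called SAF genes, in SAF (circles, 3 against 3 libraries) and VAF (diamonds, 3 against 2). Stars mark the 3 genes whose change differed between depots in the fit without the block; for most of the others the circle and the diamond lie on the same side of 0.

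At 6 months the called genes had not all kept their 3-month level. Against the geometric mean of the 1-month and 3-month group means, 28 and 30 of the 37 genes lay on the 3-month side in SAF6-1 and SAF6-2, but 18 in SAF6-3, and 15 did so in all 3 libraries. PCK1 was lower still, at 23.4, 28.6 and 53.3 CPM. NR1D1 was at 23, 25.6 and 27.1 CPM. DUSP4 measured 268, 152 and 31.5 CPM and AOX1 56.1, 0.996 and 0.32 CPM, so these genes spread over the whole range between pigs. SAF6-3 also had FASN at 140 CPM against 27323 and 26735 CPM in SAF6-1 and SAF6-2. These 6-month values are a description and were not tested.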

How the data were processed

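RNA-seq was done on SAF of 3 pigs at each age. Per the paper's methods and the labels, the authors trimmed reads (fastp), aligned them with HISAT2 (2.0.4 in the submitters' processing notes) to Sscrofa11.1, and deposited raw HTSeq counts per gene (29884 genes, 29795 matched to a RefSeq symbol). Annotation release and strand setting are not given in the sources used here.

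The 6 SAF libraries were tested with edgeR 4.0.16 in R 4.3.3 (filterByExpr, TMM, glmQLFit with legacy = FALSE, glmQLFTest). That version's default, the earlier form of the fit, was an alternative, as were DESeq2 1.42.0 and limma 3.58.1. P-values were adjusted over all genes tested and measure the spread between these samples. SE is the absolute log2FC over the square root of F. CPM were scaled together over 16 libraries. The depot interaction used 11. Counting intervals are exact binomial and cover counting error only. Tested on simulated data in which 200 genes differed by 2 on the log2 scale, edgeR recovered 92% in the SAF comparison (8 false calls among 14974 genes) and 36.5% in the interaction (7 among 16067). The simulated counts had the same dispersion, 0.1, in every gene and no library that stood apart. These shares are therefore not the power of the comparison of the real libraries.

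Genes were named by rule: up to 15 called genes per direction, the next 10 per direction with separated groups, up to 4 list members by p, the 10 most abundant, those of the study's qRT-PCR time course and the 10 with the smallest interaction p. The other called genes and list members (such as FASN, SCD, ARNTL, NPAS2, CRY1, IGF1 and MKI67) were chosen after their values were seen. The members and lists were chosen with earlier results of these data known. Some items are not reported here.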

Additional observations from a re-analysis of the deposited data

Results flagged for a closer look

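The change from 1 to 3 months differed between SAF and VAF in 374 genes at an edgeR adjusted p under 0.05, 73 with the more positive change in SAF and 301 with the more positive change in VAF. Of the genes called in SAF, DUSP4 had an interaction log2 of 1.63 (a larger rise in SAF), UCP3 of 1.79 (a smaller fall in SAF) and FAM131C of -4.23 (lower at 3 months in SAF alone by sign; 58 and 4 reads in SAF at 1 and 3 months). With age and replicate number as a block, the edgeR adjusted p was 0.038 for DUSP4, 0.067 for UCP3 and 0.11 for FAM131C. The 2 interaction genes with the smallest adjusted p, UPK3A and NCCRP1, were high in VAF at 3 months and low in VAF at 1 month. UPK3A, a urothelial plaque protein, measured 346 and 211 CPM in VAF3-1 and VAF3-2, 0.607 to 0.65 CPM in VAF at 1 month and at most 1.12 CPM in the SAF libraries of 1 and 3 months, with an interaction log2 of -10.73 (edgeR adjusted p = 9.1e-05). NCCRP1 measured 129 and 70.7 CPM in the same VAF libraries (interaction log2 -9.80). STYK1 was also separated downward in SAF (1.38, 1.48 and 1.20 CPM against 0.229, 0.061 and 0.103 CPM). The part of tissue other than fat in the VAF values was not tested.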

How the results depend on the processing

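For genes called between SAF at 1 and 3 months (37), scaling edgeR by DESeq2's size factors (32), testing without a low-count filter (49) and dropping the fold limit (37) left the count within 1.5 times. It was 23 with a filter of CPM of at least 1 in 3 libraries, 551 with DESeq2, 15 with the earlier quasi-likelihood form, 11 with limma-voom, 10 with all SAF libraries in the fit and 14 with all libraries with a group. Leaving out each library in turn gave 0 to 76 calls. The share of calls higher at 3 months was 48.6%; it was 35.7% with all libraries with a group, and over the fits that left out a library it ran from 30% (without SAF1-2) to 100% (without SAF3-2 or SAF3-3). Of the 37 genes, 37 passed with DESeq2, 36 with no filter, 32 with DESeq2's size factors, 23 with the CPM filter, 11 with limma-voom, 8 with all SAF libraries and 8 with all libraries. No called gene reversed under any alternative run.

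With the replicate number as a block the count was 171, the 37 among them. Replicate numbers do not name the same pig at different ages. Deviations from the age means correlated at 0.396, 0.312 and -0.142 for numbers 1, 2 and 3, so the numbers were not taken as pairs; SAF1-3 correlated best with SAF3-1 (0.19).

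For genes whose age change differs between SAF and VAF (374), the count was 375 with DESeq2's size factors, 372 with all groups, 361 without a filter and 378 with the earlier form, an alternative chosen after seeing the data. It was 1056 with DESeq2, 108 with the replicate block, and 158 to 580 over the fits that left out each library (158 without SAF3-3, 580 without VAF3-2). Of the list medians, 18 of 243 values moved by more than the spread between libraries, 8 of them without SAF1-2. Genes under 1 CPM rest on few reads, and their fold changes depend on the filter and the prior count.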
